A study of Mus musculus with 6 samples.

Results

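Macrophages labelled as Setd2 knockouts were set against wild-type macrophages after 24 h with lipopolysaccharide (LPS), a component of the outer membrane of Gram-negative bacteria that activates macrophages. The comparison holds the 10489 genes, of 17904 in the deposited table, that reached 1 FPKM (fragments per kilobase, a level corrected for transcript length and for the size of the library) in either 24 h library. The study sequenced RNA of bone marrow-derived macrophages, cells grown from the marrow of C57BL/6 mice aged 8 weeks during 5 days with the growth factor M-CSF. There were 6 libraries, 1 for each genotype, wild type (WT) or Setd2 knockout (KO), at 0, 12 and 24 h with LPS at 100 ng/ml. Both 24 h libraries share the strain, the culture conditions and the LPS, and differ in the labelled genotype. The labels do not give the Setd2 allele or a Cre driver, whether the deletion is in all cells, or whether the libraries come from 1 mouse or from pooled mice. With 1 library a side no difference has a replicate error, and every value below is a size without a test. Below, "KO" and "WT" name a library by its label, and a difference is log2(FPKM + 1) in KO minus that in WT.

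SETD2 trimethylates histone H3 at lysine 36 (H3K36me3) over the bodies of genes that RNA polymerase II is transcribing, and the mark is tied to splicing and to the suppression of transcription starts within genes. LPS is sensed by TLR4, which raises cytokines and chemokines through NF-kB and raises interferon-stimulated genes through interferon beta and its receptor. Over the hours that follow, macrophages shut part of this program down again, and sterol and fatty acid genes are reset by the factors SREBP and LXR. The series' title places the study in lipid metabolism and the end of inflammation.

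At 24 h, 16 of 23 measured chemokine genes, 7 of 17 cytokine genes and 7 of 41 antiviral interferon-stimulated genes were at least 2-fold higher in KO. At least 2-fold lower were both lysozyme genes, Hif1a, 6 of 22 genes of cholesterol synthesis, 5 of 22 of fatty acid synthesis, and 4 of 19 LXR targets and efflux genes, Abca1 among them. Of the 10489 genes, 256 were called higher, meaning a difference of at least 1 (2-fold after adding 1 FPKM), which is 2.44% of them. A further 224 were called lower, or 2.14%. Of these calls, 166 higher and 133 lower genes reached 5 FPKM in a 24 h library. The median difference of all members was -0.12 (quartiles -0.39 and 0.15), with 38.4% of them above 0 and 61.5% below. Dividing the KO library by a trimmed-mean factor of 0.91 moved that median to -0.01, and the calls to 313 higher and 155 lower.

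**Figure D1:**
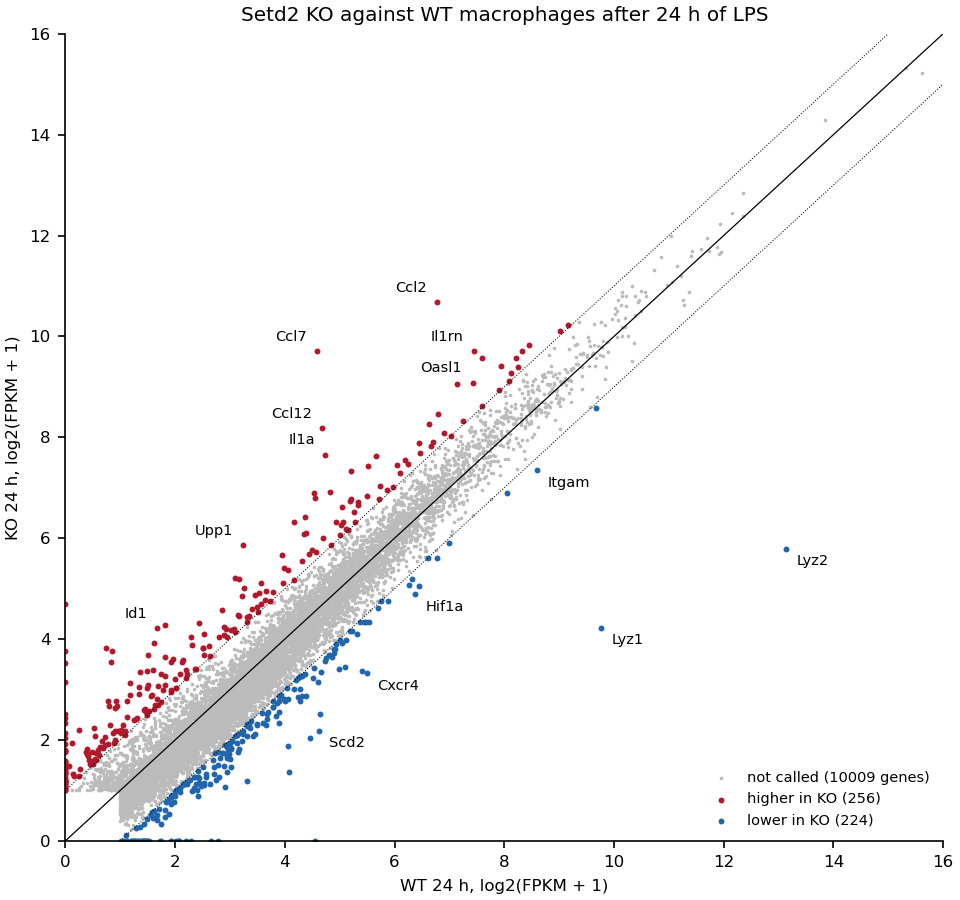
Level of each of the 10489 genes in WT (x axis) and KO (y axis) after 24 h of LPS, both as log2(FPKM + 1), with the line of equality and dotted lines at a 2-fold difference. The 256 genes called higher (red) reach up to Ccl2 and Ccl7, and of the 224 called lower (blue) Lyz2 and Lyz1 lie farthest from the line.

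The calls grade into the rest without a gap. Differences of 0.9 to 1.0 were held by 44 genes on the higher side and 114 on the lower side, and those of 1.0 to 1.1 by 53 and 75. The nearest genes inside were Moap1 (listed at 0 in WT and 1 FPKM in KO) and Sorl1 (8.98 in WT and 3.99 in KO, a difference of -1.0). The nearest outside were Uchl1 (47.65 and 96.28 FPKM) and Ttyh3 (27.37 and 13.21 FPKM). Many calls rest on few reads or on small RNA genes: 46 of the higher and 40 of the lower genes were listed at 0 in one library, and 51 and 42 were genes of small RNAs. Depth was estimated from the spacing of low values in the table. By that estimate (21960000 mapped reads in WT and 22500000 in KO, if reads had 50 bases), 55 of 248 higher and 43 of 223 lower genes with a known length had under 20 reads over both libraries. These are 22.2% and 19.3%, against 1.83% of all members with a length (190 of 10395). Genes named below reached 5 FPKM or belong to a list of known genes.

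Setd2 itself (gene ID 235626; GRCm38 chr9:110532500-110618633) had 7.51 FPKM in WT at 24 h and 5.11 in KO, a difference of -0.48. At 0 h the values were 7.83 in WT and 9.96 in KO, and at 12 h 8.68 and 9.16. A gene-level value keeps the reads of exons outside a deletion, so these values do not check the labels. Of 20 measured neighbours on chromosome 9, Nradd, Prss46 and Prss50 were called higher and none lower, around a median of -0.13. Of 13 measured enzymes that write or erase methylation at H3K36, 0 were called, with a median of -0.48 (-0.28 with the trend over transcript length removed, a step described further on). Macrophage genes were high in both 24 h libraries: Adgre1, which encodes F4/80, had 1284 FPKM in WT and 732 in KO, and Csf1r, the M-CSF receptor, 826 and 446. Cd68 (836 and 901 FPKM) and the lineage factor Spi1 (359 and 369 FPKM) differed by 0.11 and 0.04. The summed level of the 9 macrophage markers was 13204 FPKM in WT and 3318 in KO, where Lyz2 alone makes up most of the gap. Of other cell types, none of the markers of B cells, T and NK cells, mast cells or erythroid cells reached 1 FPKM in either 24 h library. Pax5 and Fcer1a were listed at 0 in both. Of the eosinophil markers, Epx was at 0 in both, Prg2 had 0.57 FPKM in WT and 1.01 in KO, and Siglecf 0.07 and 0.29. The dendritic cell marker Xcr1 had 0.44 and 1.17 FPKM. Of the megakaryocyte markers, Ppbp had 11.7 and 10.3 FPKM and Itga2b 5.08 and 4.69. The 10 neutrophil markers summed to 129 and 114 FPKM, with S100a8 at 62.0 in WT and 52.9 in KO. Some fibroblast, endothelial and osteoclast markers were present: Col1a1 had 5.74 FPKM in WT and 3.52 in KO, Dcn 1.46 and 4.38 (1.13, called higher), Kdr 4.90 and 4.75, and Acp5 129 and 120.35. The part of these cell types in the differences was not tested. In bulk RNA, fewer cells of a type and less RNA per cell cannot be told apart.

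Chemokines of the CC family, which draw monocytes, dendritic cells and lymphocytes to inflamed tissue, held the highest values of KO against WT. Of 12 measured members, 9 were called higher and 0 lower, and the median was 2.0. Ccl7, a ligand of CCR2 on monocytes, had 23.1 FPKM in WT and 832 in KO at 24 h, the largest positive difference of the genes named here (5.11). Its level in WT went from 1.06 at 0 h to 91.8 at 12 h and back to 23.1, whereas in KO it was 82.5, 360 and 832 at the same times. Ccl2, the main monocyte chemoattractant, had 108 FPKM in WT against 1638 in KO (3.91), and Ccl12, its close relative in mice, at 24.7 and 290 (3.50). In WT the 24 h levels of Ccl7, Ccl2 and Ccl12 lay below those at 12 h, while each was highest at 24 h in KO.

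Ccl2, Ccl7, Ccl12 and Ccl8 lie side by side among the genes measured at 24 h (chr11:82035577-82116799), and all 4 were called. Neighbours here and below are counted among the measured genes, with unmeasured ones passed over. Ccl8 had 7.92 FPKM in WT and 35.5 in KO. A second run of 4 called neighbours on the same chromosome (chr11:83572917-83664683) holds Ccl9, Ccl6, Ccl3 and Ccl4. Ccl3 and Ccl4, the macrophage inflammatory proteins, had 44.6 and 27.5 FPKM in WT against 173 and 119 in KO. Ccl6 had 19.7 and 84.8 FPKM, and Ccl9 97.9 and 307. Away from both runs, Ccl17, a ligand of CCR4, had 0.18 FPKM in WT and 3.58 in KO. The most abundant member, Ccl5, was not among the calls, with 4574 FPKM in WT and 5545 in KO (0.28).

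Of 11 measured CXC chemokines, which act on neutrophils through CXCR2 or on T cells through CXCR3, 7 were called higher and 0 lower, and the median was 1.48. The neutrophil attractants Cxcl1, Cxcl2 and Cxcl3 form a run of called neighbours with Pf4 (chr5:90772435-90905938). Cxcl3 had 193 FPKM in WT and 760 in KO (1.97), Cxcl1 8.60 and 31.2 (1.74), and Cxcl2 87.0 and 205 (1.23). Pf4, platelet factor 4, is also made by macrophages. It had 95.4 FPKM in WT and 89.9 in KO at 0 h, 96.0 and 95.5 at 12 h, and 245 and 685 at 24 h. Its difference at 0 h was -0.08 as deposited and 0.57 without the length trend. Cxcl10 and Cxcl11, ligands of CXCR3 that interferons induce, are neighbours farther along the chromosome (chr5:92346638-92363296). Cxcl10 had 140.5 FPKM in WT and 534 in KO, and Cxcl11 2.52 and 11.5. Ppbp (11.7 and 10.3 FPKM) and Cxcl14 (1.06 and 1) were level.

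The stretches of DNA in front of some of these genes are shown because the genes that were higher together include targets of the factors that LPS sets in motion. They are examples and do not stand for the gene lists. Each is the 250 bases before a start site of the RefSeq annotation (GRCm38.p6), printed 5′ to 3′ on the gene's strand, with matches to 5 short motifs in capitals. The motifs were the NF-kB consensus (both strands), an interferon response element GAAANNGAAA (both strands), a sterol response element TCACNCCAC (both strands), the E-box CACGTG, and the TATA box TATAAA on the gene's own strand. Positions count back from the start site, so that the last base printed is the nearest to it. In Cxcl10 (chr5:92348890-92349139, minus strand) the interferon element lies 213 to 204 bases before the start, and the NF-kB matches at 159 to 150 and 103 to 94. In Cxcl3 (chr5:90785851-90786100, plus strand) and Cxcl1 (chr5:90890995-90891244, plus strand), 2 overlapping NF-kB matches on opposite strands make up 1 run of capitals, and Cxcl3 also holds an E-box and a TATA box. Ifit3 (chr19:34583279-34583528, plus strand), an antiviral gene, holds 2 interferon elements on the reverse strand. Abca1 (chr4:53159896-53160145, minus strand), the cholesterol exporter described further on, was lower in KO and holds an E-box and a TATA box.
Cxcl10: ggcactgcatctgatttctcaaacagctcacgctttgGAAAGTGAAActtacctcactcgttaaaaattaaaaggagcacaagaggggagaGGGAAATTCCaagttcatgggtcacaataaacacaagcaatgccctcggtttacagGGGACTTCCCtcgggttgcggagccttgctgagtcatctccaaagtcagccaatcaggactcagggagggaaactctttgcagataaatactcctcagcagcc
Cxcl3: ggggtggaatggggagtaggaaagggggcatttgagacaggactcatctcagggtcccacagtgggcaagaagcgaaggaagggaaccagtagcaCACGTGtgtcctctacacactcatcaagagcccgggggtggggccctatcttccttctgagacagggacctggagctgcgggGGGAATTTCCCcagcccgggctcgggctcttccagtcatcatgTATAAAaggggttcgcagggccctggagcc
Cxcl1: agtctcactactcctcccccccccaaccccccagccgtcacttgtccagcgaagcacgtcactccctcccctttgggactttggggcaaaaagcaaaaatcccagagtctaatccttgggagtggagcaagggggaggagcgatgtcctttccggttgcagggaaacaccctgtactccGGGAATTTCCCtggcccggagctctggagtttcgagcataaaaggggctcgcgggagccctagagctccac
Ifit3: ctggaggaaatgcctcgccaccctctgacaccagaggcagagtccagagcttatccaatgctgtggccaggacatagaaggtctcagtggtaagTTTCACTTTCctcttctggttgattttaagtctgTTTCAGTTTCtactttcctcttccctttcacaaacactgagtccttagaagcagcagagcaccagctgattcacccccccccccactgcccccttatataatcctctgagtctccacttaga
Abca1: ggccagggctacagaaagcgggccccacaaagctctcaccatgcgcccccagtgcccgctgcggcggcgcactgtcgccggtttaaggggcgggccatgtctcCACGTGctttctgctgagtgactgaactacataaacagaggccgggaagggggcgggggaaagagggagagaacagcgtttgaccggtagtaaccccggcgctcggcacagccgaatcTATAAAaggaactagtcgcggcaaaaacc

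Over all members, 8373 (79.8%) matched a window of 250 bases before to 50 after a start, 148 of the genes called higher and 145 of those called lower among them. A gene with several windows counted once. The interferon element was found in 13.5% of the higher genes, 5.52% of the lower genes and 4.24% of all members with a window. The TATA box was found in 14.9%, 7.59% and 5.28%, and the NF-kB consensus in 7.43%, 4.14% and 6.32%. For the E-box the shares were 7.43%, 12.4% and 12.3%, and for the sterol element 1.35%, 2.07% and 1.31%. Genes of high level hold more of some motifs: among members that reached 100 FPKM, 8.94% had the interferon element and 11.1% a TATA box. The NF-kB consensus was found in 7.98% of these members, above its share of the higher genes. The 11 higher genes with the NF-kB consensus were AW112010, Bcl2l1, Ccl9, Csf1, Cxcl1, Cxcl2, Cxcl3, Cxcl10, H2-T22, Il6 and Oasl1. By list, the NF-kB consensus was found in 4 of 8 CXC chemokines, 1 of 8 CC chemokines and 4 of 12 cytokine genes with a window. The interferon element was found in 2, 0 and 0 of these. The sterol element was found in 1 of 17 genes of cholesterol synthesis. The 250 bases before Il1a, not printed, held a TATA box alone. A match describes letters, not binding, and these shares were not tested.

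Among receptors for chemoattractants the picture was mostly level. Of 17 measured receptors, 0 were called higher and 1 lower, and the median was 0.02. The exception was Cxcr4, the receptor for CXCL12 that holds leukocytes in the marrow, with 44.1 FPKM in WT and 9.01 in KO (-2.17). Cxcr4 was also lower in KO at 0 h (122 and 48.4 FPKM), and at 12 h the values were 19.4 and 14.3. Cx3cr1, a receptor of resident and patrolling macrophages, had 6.21 and 2.93 FPKM (-0.88), whereas the formyl peptide receptor Fpr1 had 255 and 259 (0.02).

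Of 17 measured cytokine genes, all lay above 0, 7 were called higher, and the median was 0.83. Il1a, an alarm cytokine that signals through the IL-1 receptor, led with 25.7 FPKM in WT and 200.5 in KO (2.92). Csf3, which encodes the neutrophil growth factor G-CSF, had 0.79 and 10.6 FPKM (2.70). At 12 h it was at 14.6 in WT and 10.2 in KO, so its difference at 24 h came with a lower WT level at 24 than at 12 h. Il6 (2.36 and 8.92 FPKM), Il12b (4.73 and 16.3), Tnf (39.1 and 100.3) and Csf1 (4.18 and 9.54) were each called. Il10, the main anti-inflammatory interleukin, was among them, with 1.26 FPKM in WT and 7.69 in KO (1.94). Il1b, the most abundant cytokine gene named here, was level at 1133 and 1164 FPKM (0.04).

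Some antagonists and brakes of these signals were higher as well. Il1rn, which encodes the decoy ligand that blocks the IL-1 receptor, had 175 FPKM in WT and 837 in KO (2.26), and it was the only 1 of 28 measured cytokine receptor and decoy genes called higher, with 0 lower. Of 29 feedback inhibitors, 2 were called: Socs1, which shuts off interferon signalling (29.7 and 78.8 FPKM), and the phosphatase Dusp2 (7.51 and 16.6, 0.94 without the length trend). Socs3 (179 and 187 FPKM) and Tnip3 (17.1 and 16.4) were level, and Nfkbia, the inhibitor that NF-kB itself induces, had 212 and 372 FPKM (0.81). Of the 33 measured genes of TLR and NF-kB signalling, 0 were called higher and 2 lower, and the median was -0.15. These were Tlr9, the sensor of CpG DNA (7.14 and 2.53 FPKM), and Ticam2, the adaptor that carries the TLR4 signal to interferon (13.8 and 6.35), which gave -0.83 without the length trend and -0.89 under trimmed-mean scaling. Nfkb1 (36.1 and 36.4) and Ikbkb (30.0 and 30.3 FPKM) were level. Among 27 other genes of the TNF family and its receptors, 0 were called in either direction. Tnf itself, called higher, is counted with the cytokines above.

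**Figure D2:**
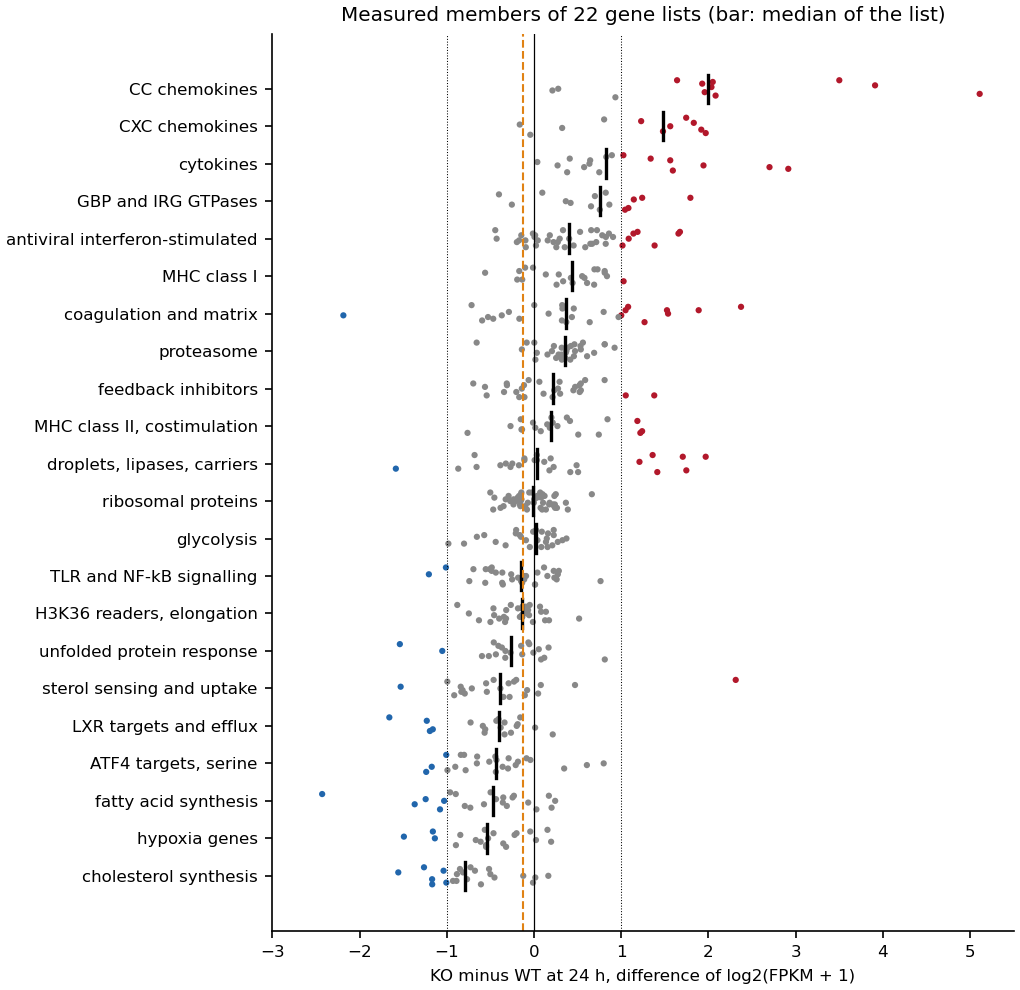
Difference between KO and WT at 24 h for every measured member of 22 gene lists (x axis, log2 scale), 1 point a gene, red or blue where called, with a black bar at the list's median and a dashed line at the median of all 10489 genes (-0.12). CC chemokines (median 2.0) and cholesterol synthesis (-0.79) are at the ends.

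Of 41 measured antiviral genes that interferons induce, 7 were called higher and 0 lower (5 and 0 without the length trend), 33 lay above 0, and the median was 0.40 (0.41 without the trend). Ifi205 (109 FPKM in WT and 351 in KO) and Oasl1, which restrains translation of Irf7 (171 and 540), had the largest differences. Ifit3 (279 and 616 FPKM), Ifit3b (39.5 and 105) and Isg15, a ubiquitin-like modifier (516 and 1097), were called as well, while Rtp4 (164 and 164) and Herc6 (31.7 and 31.4) were level. Isg15 and Isg20 were below the rule of size without the length trend, with 0.89 and 0.99. Of the 29 antiviral genes with a promoter window, 17 held the interferon element. At the earlier times, 37 of 41 had been called higher in KO at 0 h, with a median of 1.83, and 1 of 41 at 12 h, with a median of 0.34.

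The guanylate-binding proteins and immunity-related GTPases, which attack the vacuoles of intracellular microbes, had a median of 0.75 over 15 members, with 5 called higher and 0 lower. Gbp4 had 2.01 FPKM in WT and 9.43 in KO, Iigp1 10.3 and 23.9, and Tgtp2 37.8 and 79.0. Tgtp1 and Tgtp2 share sequence, and their summed levels gave 1.07. Irgm1 (106 and 114 FPKM) and Irgm2 (37.8 and 31.5) were level. All 9 members of that list with a promoter window held the interferon element. Of 21 interferon regulatory and STAT factors, Batf alone was called (27.6 and 57.2 FPKM), and it gave 0.83 without the length trend. In antigen presentation by MHC class I, 16 of 22 genes lay above 0 and the median was 0.43, but 1 was called, H2-T22 (270 and 551 FPKM, 0.93 without the trend). The proteasome genes, which make the peptides for that route, had 31 of 34 above 0 and a median of 0.36, and 0 were called. Of 21 genes of MHC class II and costimulation, Cd86, Slamf1 and Slamf9 were called higher, with Cd86, the ligand of CD28, at 6.45 and 15.9 FPKM.

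Genes of coagulation, fibrinolysis and matrix turnover had 8 of 27 called higher and 1 lower, and a median of 0.37. Mmp13, a collagenase, had 21.99 FPKM in WT and 118 in KO (2.37). Its neighbour on chromosome 9, Mmp12, the macrophage elastase, had 35.6 and 105 FPKM (1.54). Plau, which encodes urokinase, had 4.41 and 19.0 FPKM, and its receptor Plaur 37.1 and 90.8. In both genotypes Plau was lower at 24 h than at 0 h, where WT had 121 FPKM and KO 313. Edn1 (0.46 and 3.20 FPKM), Spp1, which encodes osteopontin (569 and 1202), Timp1 (61.6 and 129) and Procr (129 and 259) were the other higher calls. Spp1, Timp1 and Procr gave 0.94, 0.85 and 0.88 without the length trend. The lower call was F13a1, the transglutaminase that cross-links fibrin, with 15.7 FPKM in WT and 2.66 in KO (-2.19), and it was lower at 12 h too (6.28 and 1.97 FPKM).

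Id1 and Id3, inhibitors of basic helix-loop-helix factors and targets of BMP signalling, were at 2.20 and 2.52 FPKM in WT at 24 h, and at 17.6 and 18.5 in KO, differences of 2.54 and 2.47. At 0 h Id3 had 179 FPKM in WT and 101 in KO, and at 12 h 37.98 and 37.2, so the gap at 24 h followed a lower WT level. Inhba, a subunit of activin A, had 7.55 and 36.2 FPKM (2.12). These were the 3 called genes of 19 measured in TGF-beta and BMP signalling, whose median was -0.15. Smad1 (5.55 and 5.12 FPKM) and Smurf1 (10.2 and 9.51) were level. Upp1, the uridine phosphorylase, had 8.47 FPKM in WT and 56.9 in KO (2.61). Ccnd1, cyclin D1, had 2.78 and 10.8 FPKM (1.64). It was the only called gene of 29 measured in replication and mitosis, whose median was -0.23. Myc had 0.82 FPKM in WT and 3.39 in KO. Of the 20 measured immediate early genes, Myc was called higher and Fosl2 lower (18.7 and 8.66 FPKM, -0.75 without the length trend and -0.90 under trimmed-mean scaling).

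**Figure D3:**
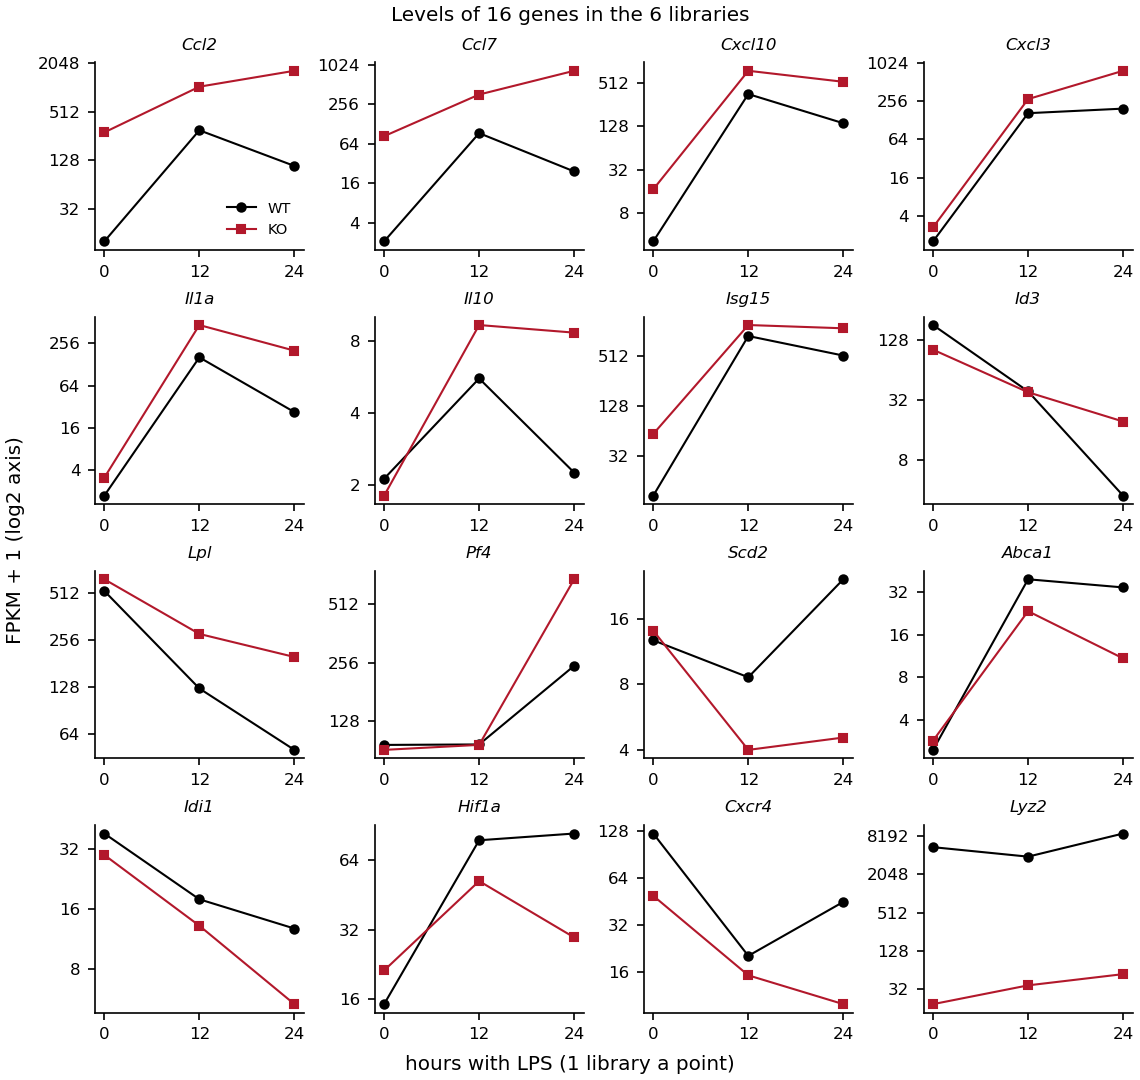
Levels of 16 genes in the 6 libraries (y axis, FPKM + 1 on a log2 axis) against hours with LPS (x axis), WT in black and KO in red, 1 library a point and so no error bars. Ccl2 and Ccl7 are highest at 24 h in KO, Pf4 and Id3 differ between genotypes at 24 h, and Lyz2 is below 55 FPKM in all 3 KO libraries.

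Lysozyme genes had the lowest values of KO against WT. Lyz2 had 9015 FPKM in WT and 54.5 in KO at 24 h (-7.34), and Lyz1, its neighbour on chromosome 10 (chr10:117277541-117292868 spans both), 870 and 17.7 (-5.54). The other times were alike, with Lyz2 at 5502 and 17.7 FPKM at 0 h and 3903 and 35.96 at 12 h. Summing the 2 copies gave -7.08 at 24 h. Lyz2, as background, is the gene into which the Cre of the widely used LysM-Cre strain is inserted. The labels name no Cre, and what lies behind the low values was not tested. Elsewhere among 16 oxidase and microbicidal genes, Cybb, the NADPH oxidase chain that carries the electrons, had 816 and 383 FPKM (-1.09, with -0.89 without the length trend and -0.96 under trimmed-mean scaling). Acod1, which makes itaconate, had 1321 and 938 FPKM (-0.49).

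Of 22 measured enzymes of cholesterol synthesis, 6 were called lower and 0 higher, 20 lay below 0, and the median was -0.79 (-0.69 without the length trend, with 6 lower). Idi1, which isomerises the isoprenoid building block, had 11.8 FPKM in WT and 4.34 in KO (-1.26). Cyp51 (10.3 and 4.01), Dhcr7 (6.77 and 2.46), Nsdhl (8.91 and 3.83) and Fdps (53.2 and 26.0) were also among the calls. Nsdhl and Fdps missed the rule under trimmed-mean scaling, at -0.93 and -0.88. In both genotypes these 5 enzymes were lower at 24 h than before LPS: at 0 h Idi1 had 37.4 FPKM in WT and 28.97 in KO. The list's median was -0.27 at 0 h and -0.24 at 12 h, with 0 called at either time. Ebp (21.9 and 22.2 FPKM) and Pdss1 (1.5 and 1.48) were level at 24 h.

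The genes that sense, take up and move sterols had 19 of 23 below 0 and a median of -0.39, with 1 called each way. Stard4, a carrier of sterols between membranes and an SREBP target, had 4.31 FPKM in WT and 0.84 in KO (-1.53). Srebf2, the factor that drives cholesterol synthesis, had 30.6 and 14.9 FPKM (-0.99), short of the rule. Ch25h, whose product 25-hydroxycholesterol holds SREBP inactive, was higher in KO, with 2.07 FPKM in WT and 14.3 in KO (2.31). Ch25h was also called at 0 h (0.31 and 2.84 FPKM), and at 12 h it had 12.0 and 23.7.

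In fatty acid synthesis and desaturation, 18 of 22 genes lay below 0, 5 were called lower and 0 higher, and the median was -0.47. Scd2, a stearoyl-CoA desaturase, had 23.5 FPKM in WT and 3.55 in KO at 24 h (-2.43). Its level in WT was higher at 24 h than at 12 h (7.64), which it was not to the same extent in KO (2.99 at 12 h). Fasn, fatty acid synthase, had 4.73 and 1.22 FPKM (-1.37), and Fads2, the delta-6 desaturase, 2.17 and 0.34. Mid1ip1 (31.2 and 14.8 FPKM) and Acsl3 (2.25 and 0.54) were called, and they gave -0.91 under trimmed-mean scaling and -0.99 without the length trend, in that order. Hsd17b12 (59.7 and 57.0 FPKM) and Hacd3 (15.5 and 15.8) were level.

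LXR targets and genes of cholesterol efflux had 17 of 19 below 0 and 4 called lower, with a median of -0.41. Abca1, which loads cholesterol onto apolipoprotein A1, had 33.4 FPKM in WT and 9.88 in KO (-1.66, or -1.29 without the length trend). It was level before LPS (1.47 and 1.87 FPKM) and at 38.2 and 22.4 at 12 h. Pltp, the phospholipid transfer protein, had 264 and 118 FPKM, Apoc2 39.0 and 16.1, and the ubiquitin ligase Mylip 10.3 and 3.94. Apoc2 (-1.23) shares 78.3% of its short sequence windows with another gene. The entry Apoc4-apoc2 shares 80.7% of its windows with Apoc2 and was called higher (1.38). Their levels were not summed, and whether the direction of Apoc2 turns on how reads were split was not tested. Nr1h3, which encodes LXR alpha, was level at 73.8 and 66.1 FPKM.

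Genes of lipid droplets, lipases and fatty acid carriers did not follow the synthesis genes. The median of 27 members was 0.03, with 6 called higher and 1 lower. Lpl, the lipase that frees fatty acids from lipoproteins, had 49.9 FPKM in WT and 198 in KO (1.97), and Lipg, endothelial lipase, 0.86 and 5.24. Plin2, which coats lipid droplets, had 297 and 763 FPKM (1.36), and Hilpda, an inhibitor of the droplet lipase ATGL, 14.9 and 41.3. Fabp3 had 20 FPKM in WT and 67.5 in KO, whereas Fabp4, the adipocyte-type carrier, had 30.9 and 9.64 (-1.58). Lipg had been far apart at 12 h, with 11.1 FPKM in WT and 97.0 in KO. Pla2g16, a phospholipase, had 2.43 and 6.93 FPKM, and Gpat4 (29.5 and 29.7) was level. Of the 31 genes of fatty acid oxidation and the 39 of sphingolipids and phospholipids, 0 were called in either direction.

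Of 20 measured hypoxia genes, 3 were called lower and 0 higher, and 17 lay below 0, around a median of -0.54 (-0.41 without the length trend). Hif1a, the oxygen-regulated factor that LPS also induces, had 82.3 FPKM in WT and 28.6 in KO (-1.49). It was at 14.3 and 20.3 FPKM at 0 h and at 76.9 and 50.9 at 12 h. Its targets Egln3 (17.0 and 7.07 FPKM) and Vegfa (27.1 and 11.8) were called, while P4ha1 (71.5 and 72.6) was level. Glycolysis held 0 calls among 27 genes and a median of 0.02, with Ldha at 1169 and 1161 FPKM and Aldoa at 2120 and 2154. Pfkfb3, which drives the rate of glycolysis, had 172 and 86.6 FPKM (-0.98). In the TCA cycle and its feeders, 1 of 29 was called, Idh1, which makes cytosolic NADPH (109 and 47.9 FPKM). The 38 nuclear genes of oxidative phosphorylation held 0 calls, and their median of 0.11 became -0.05 without the length trend.

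Targets of ATF4 and genes of serine synthesis had 21 of 24 below 0 and a median of -0.44, with 3 called lower and 0 higher. Phgdh, the first enzyme of serine synthesis, had 15.04 FPKM in WT and 5.81 in KO (-1.24) after being level at 12 h (15.7 and 15.4). Asns, asparagine synthetase, had 28.9 and 12.3 FPKM, and Aldh18a1, of proline synthesis, 5.85 and 2.41 (-0.89 without the length trend and -0.91 under trimmed-mean scaling). Of 21 genes of the unfolded protein response, the sensors Ern1 (5.97 and 1.4 FPKM) and Eif2ak3 (4.68 and 1.74) were called lower, and 0 higher. Under trimmed-mean scaling Eif2ak3 gave -0.97. Arg1, which breaks down arginine, had 96.5 FPKM in WT and 47.7 in KO (-1.0), and it was farther apart at 12 h (40.3 and 7.97). Under trimmed-mean scaling its difference at 24 h was -0.87. The arginine transporter Slc7a1 had 4.40 and 1.38 FPKM, and gave -0.88 without the length trend. Trf, transferrin, had 29.0 and 13.1 FPKM (-1.09, and -0.97 under that scaling). Hamp, which encodes the iron hormone hepcidin, was listed at 0 in WT and had 1.69 FPKM in KO, from 1.62 and 11.7 at 12 h.

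Surface receptors of the CD300 and TREM families split. Cd300lf, an inhibitory receptor for lipids of dying cells, had 17.1 FPKM in WT and 78.5 in KO (2.14). On the same chromosome, Cd300lh had 24.0 and 4.71 FPKM (-2.13), Cd300ld 33.8 and 14.9, and Cd300e 7.73 and 3.26 (-1.04, and -0.93 under trimmed-mean scaling). Cd300lh shares sequence with Gm11711 (now Cd300ld5), and summed they gave -2.39. Trem2, a lipid-sensing receptor of macrophages, had 151 and 320 FPKM (1.08) with 262 and 256 at 12 h, and it gave 0.89 without the length trend. Of 25 efferocytosis genes, Havcr2, which encodes TIM-3, was called higher (6.43 and 17.9 FPKM) and the receptor kinase Mertk lower (18.2 and 8.50, -0.83 without the trend and -0.89 under trimmed-mean scaling). Itgam, the alpha chain of complement receptor 3, had 387 FPKM in WT and 163 in KO (-1.24).

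Among 18 measured histone genes of the clusters, 6 were called higher and 2 lower, but several are near copies of each other. Hist2h2aa1 had 35.8 FPKM in WT and 161 in KO (2.14) and its copy Hist2h2aa2 2.29 and 0. Their summed levels gave 2.05. Likewise Hist2h3c2 (0.67 and 13.1 FPKM) and Hist2h3c1 (3.06 and 0) gave 1.58 when the copies of Hist2h3 were summed. How reads were split between such copies decides the single values, so the direction of Hist2h2aa2 and Hist2h3c1 turns on it. Hist1h2bc, a polyadenylated histone gene, had 71.8 and 185 FPKM (1.36). Over all calls with sequence, 46 of 248 higher and 43 of 223 lower genes shared at least 50% of their 50-base windows with another gene. Besides those pointed out elsewhere, the named genes among them include Trf (79.8%), Itgam (72.7%), Phgdh (63.1%) and Lats2 (52.8%), called lower, and Ifit3 (51.2%), called higher. Whether the split of reads moved their values was not tested, apart from the summed copies.

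Differences at 24 h ran with the length of the mature transcript. The Spearman correlation of difference with length was -0.43 over the 10395 members with a length (99.1%), and it is a description of 2 libraries, since genes are not replicates. Transcripts of up to 500 bases had a median of 0.21 and those of 500 to 1000 bases 0.19. Transcripts over 8000 bases had a median of -0.45, with 0 of 332 called higher and 15 lower. The pair of libraries at 0 h had the opposite trend (rho 0.53), and the 12 h pair almost none (rho 0.08). The genes called higher at 24 h had a median length of 1157 bases and 3 exons, those called lower 2997 bases and 7 exons, and all members 2714 bases and 8.5 exons. Removing a smooth curve of difference over length left 219 genes called higher (2.09%) and 173 lower (1.65%). Of the calls as deposited, 205 higher and 154 lower genes remained, and the rho became -0.07. The part of RNA quality in this trend was not tested.

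**Figure D4:**
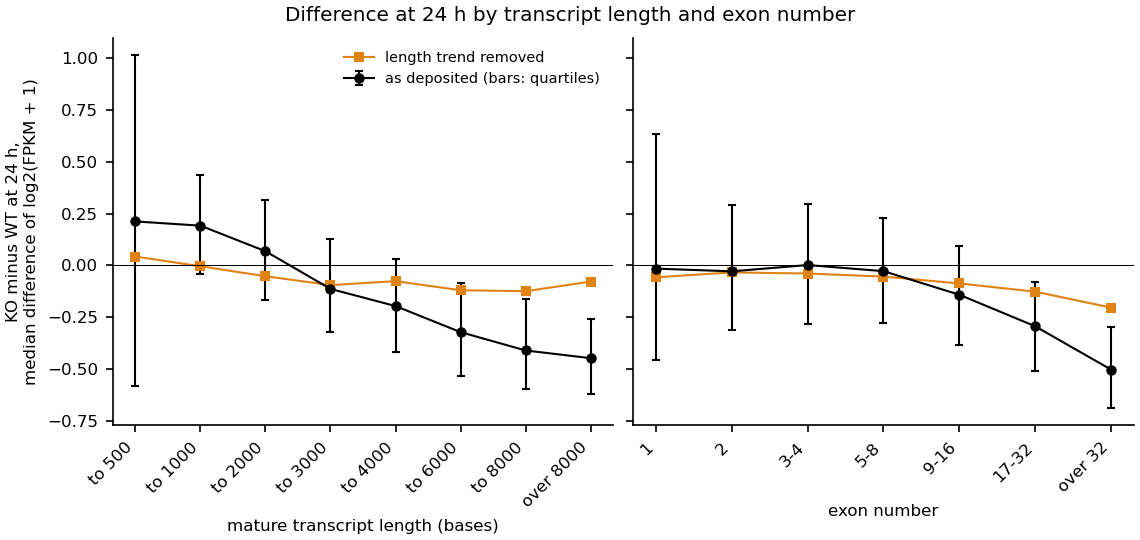
Median difference between KO and WT at 24 h (y axis, log2 scale) in bins of transcript length (left) and exon number (right), as deposited with quartiles (black) and after the length trend was removed (orange). As deposited, the median goes from 0.21 for the shortest to -0.45 for the longest transcripts.

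Exon number was tied to the difference too, with a rho of -0.27 that became -0.09 without the length trend. Genes of 1 exon had a median of -0.02, those of 17 to 32 exons -0.29, and those of over 32 exons -0.50. Without the length trend the last became -0.20, below the median of all members (-0.08). Of the 365 single-exon genes, 70 were called higher and 52 lower, the widest spread of the exon bins. Small RNA genes, which account for 51 of all higher and 42 of all lower calls, were not set apart in these bins. GC content had a rho of 0.20. The 32 measured readers of H3K36 methylation and elongation factors had a median of -0.14 with 0 called, and Polr2a, the largest subunit of RNA polymerase II, had 20.5 and 10.7 FPKM (-0.88).

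Calls of 24 h were also looked up in the earlier pairs of libraries. The background at 12 h was 1.43% called higher and 0.799% lower of 10641 genes, and at 0 h 3.12% and 1.33% of 10998. Of the 256 genes higher at 24 h, 59 were also called higher at 12 h (23.05% of the 24 h list and 38.8% of the 12 h list) and 47 at 0 h (18.4% and 13.7%). Of the 224 lower genes, 18 were also lower at 12 h (8.04% and 21.2%) and 16 at 0 h (7.14% and 10.96%). At all 3 times 16 genes were higher and 3 lower. In neither earlier pair were 166 of the higher and 193 of the lower genes called in that direction. Some of these were below 1 FPKM in both libraries of an earlier pair, where no call could be made. Of the 256 higher genes, 188 were measured at 0 h and 216 at 12 h, and of the 224 lower genes 197 and 202. The shares above count unmeasured genes as not called. Opposite calls were also found: 12 of the higher genes were called lower at 0 h and 5 at 12 h, and 29 of the lower genes were called higher at 0 h and 11 at 12 h. The 24 h pair shares no library with the other pairs. Whether the differences of 24 h and of the earlier times differ was not tested.

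**Figure D5:**
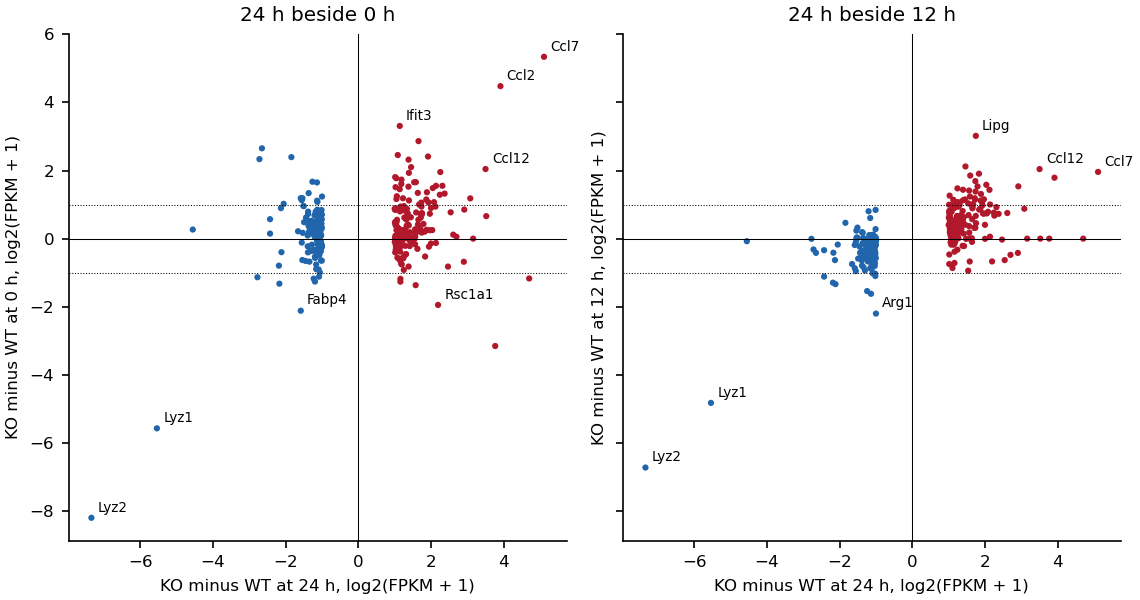
Differences between KO and WT at 24 h (x axis) beside those at 0 h (left) and 12 h (right), all on the log2 scale, for the 166 higher (red) and 133 lower (blue) calls of 24 h that reached 5 FPKM. Ccl7, Ccl12, Lyz2 and Lyz1 lie far out at each time, while most lower calls lie around or above 0 at 0 h.

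Some genes called at 24 h had differences under 0.3 in size at 0 and 12 h as deposited. Leaving out predicted genes and those under 5 FPKM, 17 higher and 17 lower genes met this. A gene below 1 FPKM at an earlier time could meet it too, as Cxcl5 did at 0 h (0.54 FPKM in WT and 0.72 in KO). With the length trend removed at each time, 4 of these higher and 12 of these lower genes still had sizes under 0.3 at 0 and 12 h. Of the 6 higher genes named next, Tubb2a alone did, the others having 0.31 to 0.76 at 0 h. The higher ones were led by Hist2h2aa1, then Tubb2a, a beta-tubulin (35.99 FPKM in WT and 108 in KO, 1.57), Cxcl5 (1.53 and 6.47) and Pf4, followed by Tnnc1 (3.37 and 10.7) and Hilpda. The lower ones were led by Ednrb, an endothelin receptor, with 20.02 FPKM in WT and 6.28 in KO (-1.53), after 0.76 and 0.98 at 0 h and 9.37 and 9.63 at 12 h. Man2a2 (6.72 and 2.12 FPKM), Gda, guanine deaminase (11.2 and 4.07), Phgdh, Lats2, a kinase of the Hippo pathway (8.29 and 2.96), and Rbl2, a relative of the retinoblastoma protein (6.07 and 2.13, -0.97 without the length trend), came next. Phgdh had 0.39 at 0 h without that trend. Of the remaining lowest genes, Nxpe5 had 8.92 FPKM in WT and 1.29 in KO (-2.11), Klhl24 5.69 and 1.3 (-1.54), and Kif13b 6.74 and 1.58 (-1.58).

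Genes often used as references were also set side by side in the 2 libraries. Of 20 reference genes 0 were called, with a median of -0.07 and a range of -0.88 to 0.94. Ppia was level (936 and 946 FPKM), but Actb had 2102 FPKM in WT and 4046 in KO (0.94) and Tubb5 198 and 355 (0.84). The 50 ribosomal protein genes lay between -0.50 and 0.66 around a median of -0.01 (-0.18 without the length trend), with 0 called. A difference near 1 in a single gene is close to the spread that reference genes showed between these 2 libraries. That spread is not a replicate error, and the length trend and the genotype cannot be told apart within it.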

How the data were processed

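RNA of 6 libraries of mouse macrophages, 1 a group, was analysed from a table of FPKM that the authors deposited, rounded to 2 decimals. The authors used Bowtie2, RSEM and the build GRCm38, per the submitters' processing notes; versions are not given in the sources used here. Sequencing was on the BGISEQ-500 platform, per the labels' protocols. Of 17905 rows, 1 named no gene; 25 symbols that read as dates were looked up again by gene ID, and 2 cells that are not numbers were read as missing. Coordinates came from RefSeq (GRCm38.p6), and lengths, exon numbers and GC content from GENCODE M21.

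The difference was log2(FPKM + 1) in KO minus WT over genes with 1 FPKM or more in either library of the pair, and it understates the change of low genes. A gene was called at a size of 1 or more; with 1 library a group there is no test or p-value across genes. Depth, estimated from whole-read steps at 21700000 to 22500000 mapped reads per library, assumes 50-base reads; it covers counting error only. The length trend is a lowess curve (span 0.3, genes with a mean of 10 FPKM or more, centred at its median), subtracted in full from low genes too. The 63 gene lists (12 of them cell type markers), the members and the rules were chosen with earlier results of these data known. Named were the 15 highest and 15 lowest called genes reaching 5 FPKM, without predicted genes and microRNA genes, every called list member, up to 4 of largest size and 2 nearest 0 of each list, and 6 each way with sizes under 0.3 at 0 and 12 h; the edge genes, those with opposite calls at other times and a few background genes were chosen after their values were seen. Alternatives were pseudocounts of 0.1 and 5, minima of 5 FPKM or none, 1.5- and 3-fold rules, 2 scalings, and trends removed; summing copies and leaving out genes of shared sequence were added after seeing the data. The steps were tested on simulated data. Python 3.11.15, numpy 2.4.6, pandas 2.3.3, scipy 1.17.1, statsmodels 0.14.6 and matplotlib 3.10.9 were used. Some genes of the lists are not reported here.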

Additional observations from a re-analysis of the deposited data

Results flagged for a closer look

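Among called genes that reached 5 FPKM at 24 h, leaving out predicted genes, 12 had been called in the opposite direction in the 0 h pair of libraries, and none in the 12 h pair. The difference between times was not tested, as each time has 1 library a genotype. On the log2 scale of KO minus WT, the 10 that were lower at 24 h and higher at 0 h were Mob1a (-2.05 at 24 h and 1.02 at 0 h), Kif13b (-1.58 at 24 h and 1.19 at 0 h), Rcor1 (-1.56 at 24 h and 1.13 at 0 h), Ern1 (-1.54 at 24 h and 1.19 at 0 h), Gatad2b (-1.37 at 24 h and 1.34 at 0 h), Spred2 (-1.26 at 24 h and 1.67 at 0 h), Wdfy2 (-1.14 at 24 h and 1.65 at 0 h), Pds5a (-1.13 at 24 h and 1.11 at 0 h), Spen (-1.13 at 24 h and 1.08 at 0 h) and Sorl1 (-1.0 at 24 h and 1.24 at 0 h). The other two were Malat1 (1.16 at 24 h and -1.26 at 0 h) and Rsc1a1 (2.19 at 24 h and -1.95 at 0 h). Mob1a, a co-activator of the Hippo kinases, had 28.5 FPKM in WT and 58.8 in KO at 0 h, 60.4 and 53.5 at 12 h, and 41.6 and 9.27 at 24 h. Malat1, a nuclear long noncoding RNA, had 84.4 and 34.6 FPKM at 0 h and 101 and 226 at 24 h. The trend over transcript length also ran in opposite directions at these times. With it removed at both, 8 of the 12 were still called at 24 h and 5 at both times. The median length of the 12 was 5008 bases. Its part in these values was not otherwise tested. Rsc1a1 shares all of its sequence windows with Ddi2, so its reads cannot be told apart from those of that gene.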

How the results depend on the processing

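The counts of 256 higher and 224 lower genes moved by under 1.5 times with either scaling, the length trend removed, the length and GC trends removed, and genes of shared sequence left out (210 and 181). Dropping the minimum cannot change them, since a size of 1 needs at least 1 FPKM. With a pseudocount of 0.1 the lower count was 541, and with a pseudocount of 5 the counts were 98 higher and 37 lower. A minimum of 5 FPKM left 166 and 133, a 1.5-fold rule gave 688 and 1233, and a 3-fold rule 71 and 26. Summing copies turned Hist2h2aa2 to 2.05 and Hist2h3c1 to 1.58. Of the 135 named genes called, 117 stayed called with the length trend removed and 122 under either scaling, but 72 with a pseudocount of 5, which shrinks low genes by construction. No list median above 0.3 in size changed sign under the 8 alternatives run on medians. No paired analysis was possible because each group holds 1 library, and leaving out a library leaves no comparison. Depth limits the calls of genes near 1 FPKM, and counting error is not replicate error.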

Other observations

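Genes outside the lists were among the abundant ones called at 24 h, named here after their values were seen. Ly6a, which encodes the surface antigen Sca-1 that interferons induce, had 348 FPKM in WT and 913 in KO (1.39), and Npy, neuropeptide Y, 319 and 836 (1.39). Pdpn, podoplanin, a marker of inflammatory macrophages, had 85.8 and 237 FPKM (1.45), and Lmna, which encodes lamins A and C, 64.8 and 173 (1.41). Slc15a3, a lysosomal peptide transporter, had 303 and 667 FPKM (1.14). On the lower side, Ptprc, which encodes CD45, had 127 FPKM in WT and 59.2 in KO (-1.08), Bin2 85.6 and 32.01 (-1.39), and Bcl6, a transcriptional repressor of inflammatory genes, 35.3 and 16.9 (-1.02).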
